A study of Rattus norvegicus with 23 samples.

Results

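The proteasome is described here through the rat genes named for it, those whose symbol is Psm followed by a letter from a to g and a digit. The rule found 47 genes among the 10723 in the table of values per library at 12 weeks, and the same 47 among the 11283 genes in each of the authors' deposited tables of comparisons at 6 and at 12 weeks. At 12 weeks 46 of them passed the filter on low values. Psma3l, a further row at the Psma3 locus, stayed below it with means of 0.426 ± 0.611 normalized counts for MI and 0.474 ± 0.670 for MI+TRD (SD, n = 6 per group). Psmc3ip matches by its symbol, but it encodes a partner of meiotic recombinases that was first found as a binding partner of Psmc3 and is no proteasome subunit. It was kept in every count.

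The samples were myocardium of Sprague-Dawley rats, an outbred strain. Every animal had a myocardial infarction (MI) from ligation of a coronary artery. The MI+TRD groups then had a further operation that implanted a device called TRD. At 12 weeks after surgery each group had 6 samples, and at 6 weeks MI had 6 and MI+TRD had 5, which makes 23 in all. All groups therefore carried an infarct, and no group without one was compared. The labels do not spell out TRD, do not say which part of the heart was cut, and name samples but no animals, so each p-value reflects the spread between samples, which may be technical. In bulk tissue, fewer cells of a type and less RNA per cell cannot be told apart.

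The 12-week libraries held between 7197118 and 10304156 recovered reads. The deposited values summed to between 465321 and 540053 in MI 1, 2 and 4. In MI 3, 5 and 6 they summed to between 388572 and 421257, and in MI+TRD to between 369333 and 398879. All 8 listed cardiomyocyte markers were present, with a summed level of 21057 to 35828 normalized counts in MI and 16708 to 31201 in MI+TRD. Several libraries stood apart. In MI+TRD 1, 4 and 5 the 352 genes that span up to 2 kb of genome had a median log2 deviation from the MI mean of -0.68, -0.51 and -0.54, against -0.19 to 0.17 in the MI libraries and -0.06 to 0.00 in MI+TRD 2, 3 and 6. The same 3 libraries had 119, 114 and 178 genes at 0 reads, against 13 to 75 in the others. Their summed level of the 5 endothelial markers was 647, 723 and 610, above the MI range of 426 to 601. In MI+TRD 2, 3 and 6 that sum was 313, 378 and 351, below the MI range. MI+TRD 6 had a summed leukocyte level of 1908 over the 9 markers present (of 11 listed), none of them at 0 reads in any library, against 44.0 to 146 in the other 11 libraries, and a summed fibroblast level of 3049, against 716 to 1373. That fibroblast sum was mostly collagen, with Col1a1, Col1a2 and Col3a1 at 1073, 610 and 986. The other fibroblast markers, Dcn, Lum and Pdgfra, were at 278, 57.7 and 44.9, within the range of the other libraries. The summed level of the 4 atrial markers ran from 148 to 11798 in MI and from 46.0 to 3257 in MI+TRD. Nppa made up most of that sum in every library. Myl7 ran from 2.32 to 3170 in MI and from 0.0999 to 614 in MI+TRD, highest in MI 2, MI+TRD 2 and MI 5. Of the epicardial and mesothelial markers, 5 of 6 tested were higher with the device at an unadjusted p below 0.05 by limma (median relative log2 fold change 1.67), and their summed level over the 7 present (of 8 listed) was 13.8 to 29.1 in MI and 21.7 to 93.4 in MI+TRD, highest in MI+TRD 6 and 2. Of the 8 cardiomyocyte markers, 3 (Tnni3, Mybpc3 and Myl2) were lower at that p and none was higher. Over all genes tested 19.1% were lower and 2.79% higher at that p. The part of cell makeup in the results below was not tested.

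The proteasome degrades proteins that carry chains of ubiquitin. Its 20S core particle is a barrel of outer rings of alpha subunits and inner rings of beta subunits, and among the beta subunits Psmb5, Psmb6 and Psmb7 cut peptide bonds. Under interferon, and constitutively in lymphoid cells, Psmb8, Psmb9 and Psmb10 are built into new cores in their place, giving the immunoproteasome. The 19S regulatory particle caps the core: its base holds a ring of ATPases that unfold substrates, and its lid removes ubiquitin. Chaperones assemble core and base, and other activators can cap the core instead. In heart muscle the proteasome removes damaged and misfolded contractile proteins.

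Transcription of these genes is known to be raised together by Nfe2l1 and Nfe2l2, which bind antioxidant response elements, and that of the immune subunits by interferon-stimulated response elements. RefSeq (assembly GRCr8) gave a promoter window, 250 bases before to 50 after the gene start, for 42 of the 47 genes. The 250 bases upstream of 4 genes to which the results return are shown 5′ to 3′ on the strand of the gene: both standard catalytic subunits that carry the first of these motifs, the base chaperone Psmd9, and the immune subunit Psmb10. Capitals mark the letters TGACNNNGC, or their reverse complement, in Psmb5, Psmb6 and Psmd9, and GAAA, any 2 bases and GAAA again in Psmb10.
Psmb5, chr15:32047380-32047629, minus strand: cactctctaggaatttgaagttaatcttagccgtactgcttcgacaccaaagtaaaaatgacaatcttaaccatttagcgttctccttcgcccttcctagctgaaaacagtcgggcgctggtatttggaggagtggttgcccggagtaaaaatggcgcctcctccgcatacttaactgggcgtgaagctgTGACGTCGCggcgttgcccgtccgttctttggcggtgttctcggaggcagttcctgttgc
Psmb6, chr10:55737638-55737887, plus strand: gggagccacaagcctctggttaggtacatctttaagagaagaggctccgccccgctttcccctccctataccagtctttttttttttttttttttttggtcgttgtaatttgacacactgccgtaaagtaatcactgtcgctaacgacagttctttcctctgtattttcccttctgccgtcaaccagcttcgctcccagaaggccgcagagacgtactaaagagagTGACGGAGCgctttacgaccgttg
Psmd9, chr12:39018265-39018514, minus strand: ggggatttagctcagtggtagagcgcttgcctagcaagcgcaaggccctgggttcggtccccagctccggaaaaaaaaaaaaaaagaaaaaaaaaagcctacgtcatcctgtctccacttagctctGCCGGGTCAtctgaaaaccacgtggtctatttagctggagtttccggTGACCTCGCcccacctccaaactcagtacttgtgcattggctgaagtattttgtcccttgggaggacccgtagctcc
Psmb10, chr19:50743293-50743542, minus strand: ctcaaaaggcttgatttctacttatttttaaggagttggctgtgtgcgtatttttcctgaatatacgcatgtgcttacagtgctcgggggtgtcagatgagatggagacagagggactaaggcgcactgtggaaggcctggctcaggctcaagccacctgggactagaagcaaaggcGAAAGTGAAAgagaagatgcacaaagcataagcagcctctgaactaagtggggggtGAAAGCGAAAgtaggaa

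On either strand, TGACNNNGC was found in the windows of 8 of the 42 genes, which are Psma3, Psmb2, Psmb5, Psmb6, Psmd1, Psmd3, Psmd9 and Psme4. It was found in 12.1% of the 33469 promoters of the table. The paired GAAA motif was found in 7 of the 42 (16.7%), against 3.92% of all promoters. They are the immune subunits Psmb8 and Psmb10, the activator Psme2, and Psma4, Psmb3, Psmd7 and Psmg4. The immune subunit Psmb9 had no match. The CCAAT box, CCAAT, was found in 21 of the 42, against 37.5% of all promoters. In Psmb2 the CCAAT match and the TGACNNNGC match share the base at -68 from the start. These matches are descriptions of letters, and binding of a factor was not measured.

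The main comparison was MI+TRD against MI at 12 weeks, in normalized counts. Most proteasome genes had lower values with the device. The lowest were the beta subunits Psmb6 and Psmb3, the chaperones Psmd9 and Psmg4 and the lid subunit Psmd8, while the large base scaffolds and the activator Psme4 lay above the median gene. On the deposited scale the median gene of the whole table had a log2 fold change of -0.14, and fold changes below are given relative to it. The median of the 46 tested members was -0.18 on that relative scale and 37 of them lay below the median gene. Single members ran from -0.71 (Psmb6) to 0.30 (Psme4).

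No member passed an adjusted p of 0.05 with limma, and neither did any other gene of the table (0% called in either direction). The lowest adjusted p among the members was 0.132, for Psmb7. At an unadjusted p below 0.05, 21 of 46 members (45.7%) were lower, where 19.1% of all genes tested were lower. None was higher, where 2.79% of all genes were higher. No member separated the groups without overlap, as 1.59% of all genes did downward and 0.113% upward.

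The number of lower members depended on the scaling of the libraries and on a few of them. With libraries scaled by median ratios, 7 members were lower at an unadjusted p below 0.05 (8.22% of all genes) and 1, Psme4, was higher (7.53%). With equal column totals 1 was lower (3.88%) and 1 higher (11.3%). Over all genes the deposited scale gave 2034 lower and 297 higher, median ratios gave 874 and 800, and equal totals gave 412 and 1206. The members' median relative to the median gene was -0.17 under both other scalings. Quantile normalization left 8 lower (9.80% of all genes), limma with library weights 6 (13.7%), edgeR 7 (6.99%) and DESeq2 6 (7.19%). DESeq2 alone called genes at an adjusted p below 0.05, 0.0659% of all genes lower and 0.103% higher, with no member among them.

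Without MI+TRD 1, 4 and 5 on the deposited scale, 1 member, Psmd4, was lower at an unadjusted p below 0.05, where 9.71% of all genes were, and the median of the 47 members then tested was -0.03. With median ratios as well it was 0 members, where 3.49% of all genes were lower. Leaving out MI+TRD 1 alone gave 10 lower members (15.1% of all genes), and 13 were lower without MI 1 (16.1%), without MI 2 (14.9%) or without MI 4 (13.4%).

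**Figure D1:**
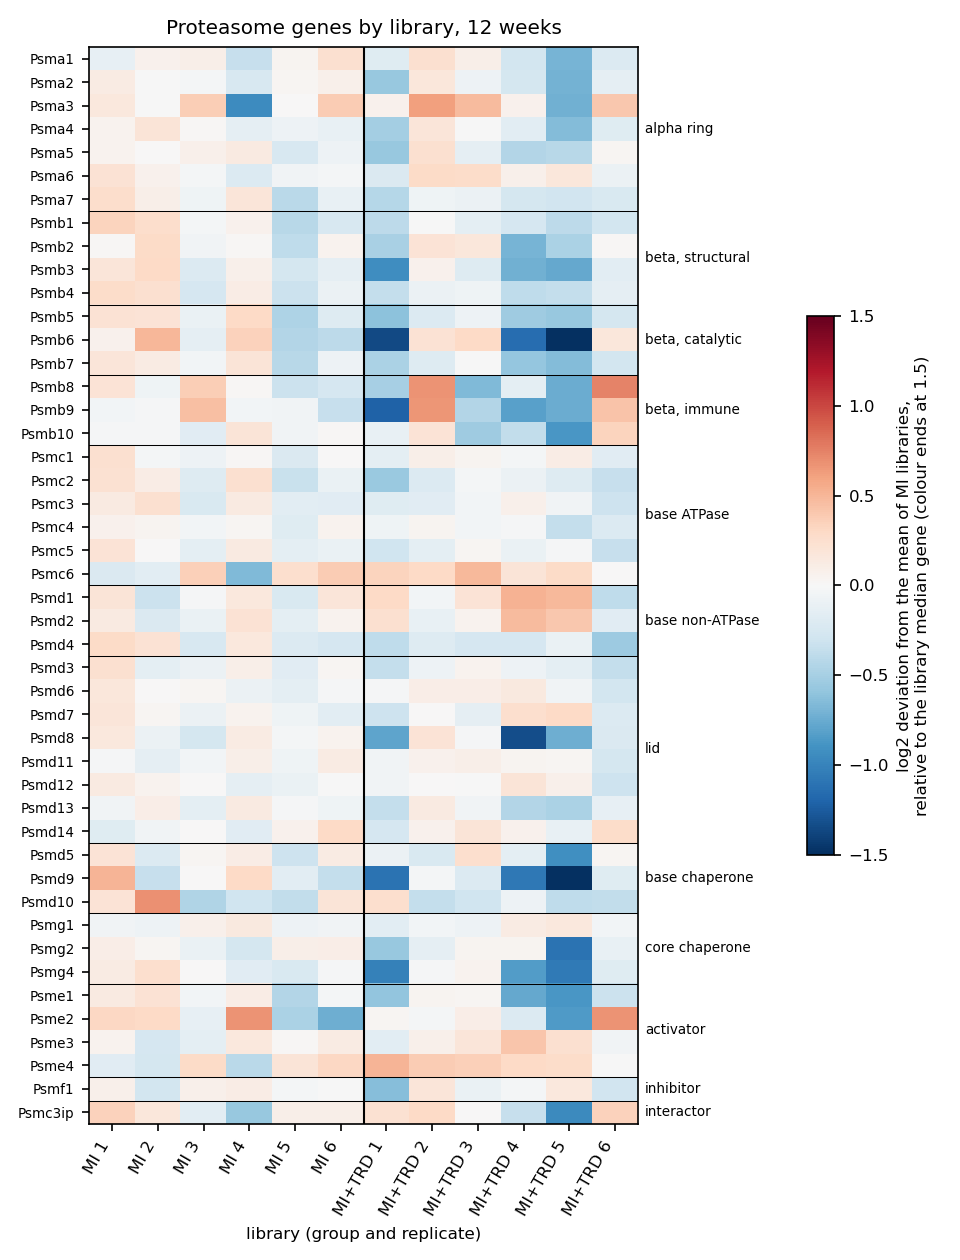
Log2 deviation of each tested proteasome gene (rows, grouped by role) from the mean of the MI libraries, relative to the median gene of each library (columns, 6 MI and 6 MI+TRD at 12 weeks). The median over all 46 genes is lowest in MI+TRD 5 and 1, at -0.39 and -0.34, followed by MI+TRD 6 at -0.18 and MI+TRD 4 at -0.15.

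The lower values gathered in some libraries. Taking the median over the 46 members in each library, relative to that library's median gene, the MI libraries lay between -0.15 and 0.15. MI+TRD 1 and 5 lay below all of them, at -0.34 and -0.39, and MI+TRD 6 lay just below at -0.18. MI+TRD 4 was at -0.15, level with the lowest MI library, and MI+TRD 2 and 3 were at 0.05 and -0.01, inside the MI range. In deposited values, 37 of the 46 members lay under the lowest MI library in MI+TRD 1, 22 in MI+TRD 4 and 27 in MI+TRD 5, where 35.5%, 34.5% and 33.2% of all genes did. In MI+TRD 6 it was 18, in MI+TRD 3 it was 15 and in MI+TRD 2 it was 5, where 22.3%, 31.9% and 24.2% of all genes did. Counted against the median gene of the library, 38, 19, 24, 31, 34 and 34 members lay below it in MI+TRD 1 to 6. In MI 1, 2 and 4 it was 9, 19 and 15 members, and in MI 3, 5 and 6 it was 30, 37 and 26. The part of this split among the MI libraries in the result was not tested.

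MI+TRD 1, 4 and 5 are the libraries in which short genes lay low. The median genomic span of the members was 9.83 kb, from 2.31 kb (Psmb6) to 103 kb (Psme4). Over all genes the deposited intervals reached 130313 kb, so some spans may not be those of a single gene. Members that span 2 to 5 kb had a median relative log2 fold change of -0.23 (8 genes), where all genes of that span had -0.21. For 5 to 10 kb it was -0.21 (15 genes) against -0.13, for 10 to 20 kb -0.18 (14 genes) against -0.05, and for 20 to 50 kb -0.12 (5 genes) against 0.06. Spearman's rho between relative fold change and span was 0.37 across the 46 members and 0.39 across the 10629 genes tested, as a description across genes that share the same 12 libraries. With a smooth trend over span removed from each library, 4 members were lower at an unadjusted p below 0.05 (8.22% of all genes), and the members' median was -0.10. The part of these 3 libraries and of gene span in the result was not tested.

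**Figure D2:**
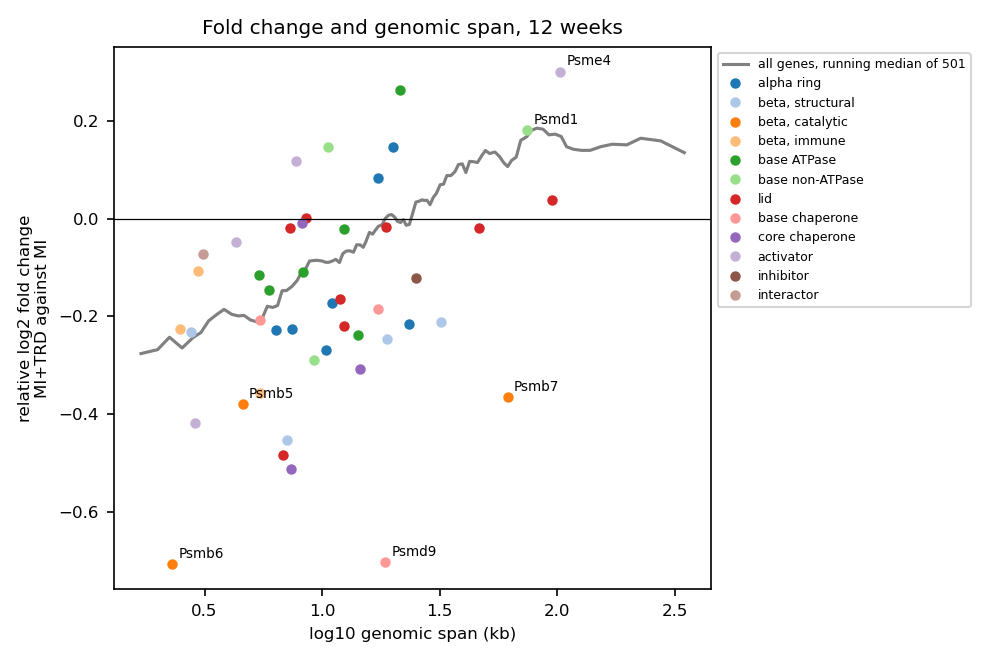
Relative log2 fold change of each tested proteasome gene (points, coloured by role) against log10 of its genomic span in kb, with the running median of all genes as a grey line. The line climbs with span, and Psmb6, Psmd9 and Psmb7 lie furthest under it.

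The standard catalytic subunits had the lowest median of any role with more than 1 member, -0.38. Psmb5, the chymotrypsin-like site, had a lowest, median and highest value of 60.6, 88.0 and 122 normalized counts in MI against 49.6, 61.0 and 70.4 in MI+TRD. Further values given by 3 for a group are in that order. All 6 MI+TRD libraries lay under the MI mean of 88.8 ± 23.7 (SD, n = 6), and 3 lay under the lowest MI library, so that the groups overlapped. MI 1, 2 and 4 had 100 to 122, and MI 3, 5 and 6 had 60.6 to 75.6. The relative log2 fold change was -0.38 (SE 0.17), with an unadjusted p of 0.00844 and an adjusted p of 0.133 by limma.

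Psmb7, the trypsin-like site, had values of 60.9, 86.1 and 110 in MI against 49.8, 59.2 and 71.8 in MI+TRD (lowest, median, highest). Its pattern was that of Psmb5, with all 6 MI+TRD libraries under the MI mean and 3 under the lowest MI library. In MI 1, 2 and 4 it had 95.5 to 110, against 60.9 to 76.7 in MI 3, 5 and 6. Its relative log2 fold change was -0.37 (SE 0.16), unadjusted p 0.00534 and adjusted p 0.132 by limma. At a span of 61.6 kb Psmb7 is one of the longer members, and with the span trend removed it stood at -0.48.

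Psmb6, the caspase-like site, split the device group. It had 7.84 to 16.8 normalized counts in MI (median 10.7), and in MI+TRD it had 11.8, 11.9 and 11.9 in libraries 2, 3 and 6 but 3.70, 4.38 and 1.77 in libraries 1, 4 and 5. The relative log2 fold change of -0.71 (SE 0.41, unadjusted p = 0.0566, adjusted p = 0.243 by limma) rested on those 3 libraries, and was 0.24 without them. The deposited row of Psmb6, at chr10:57131378-57133686 (rn6, plus strand), shares 2253 of its 2309 bases with that of LOC100360846 on the same strand. LOC100360846 had 39.9 to 70.0 normalized counts in MI and 34.3 to 43.7 in MI+TRD, with all 6 MI+TRD libraries under the MI mean. Summed over both rows, MI had 65.9 ± 17.9 and MI+TRD had 45.3 ± 5.38 (SD, n = 6 per group), a relative log2 fold change of -0.36. How the authors' counting divides reads between such rows is not given in the sources used here, and RefSeq also lists near namesakes (Psmb3l1, Psmb6l1, Psmg4l1), so the value of Psmb6 alone is uncertain.

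**Figure D3:**
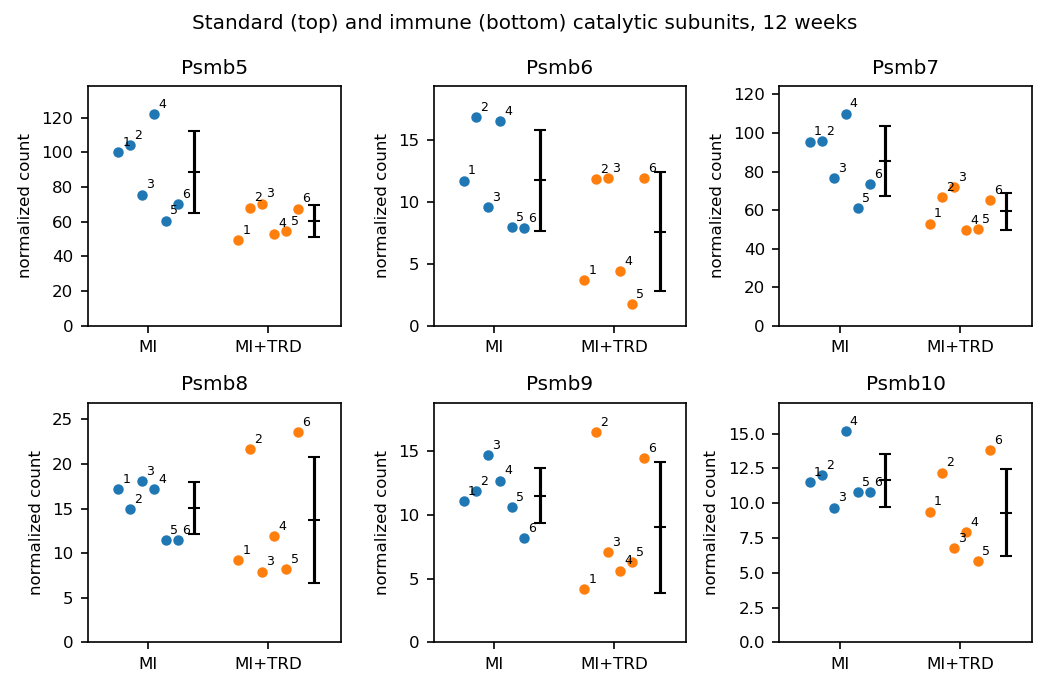
Normalized counts of the standard catalytic subunits (top) and of the immune subunits that replace them (bottom) in each 12-week library, numbered by replicate, with the mean and SD beside each group. Psmb6 is at 1.77 to 4.38 in MI+TRD 1, 4 and 5, and Psmb8 is at 21.7 and 23.6 in MI+TRD 2 and 6, above every MI library.

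The immune subunits followed another pattern, with MI+TRD 2 and 6 high and the other 4 device libraries low. Psmb8, which takes the place of Psmb5, had 11.5, 16.1 and 18.1 normalized counts in MI (lowest, median, highest). In MI+TRD it had 21.7 and 23.6 in libraries 2 and 6, above every MI library, and 7.94 to 11.9 in the others. Psmb9, which takes the place of Psmb6, had 8.22, 11.5 and 14.7 in MI, 16.5 and 14.5 in MI+TRD 2 and 6, and 4.2 to 7.11 in the others. Psmb10, the partner of Psmb7, had 9.68, 11.2 and 15.2 in MI, 12.2 and 13.8 in MI+TRD 2 and 6, and 5.85 to 9.39 in the others.

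None of the 3 was lower at an unadjusted p below 0.05 by limma, where 19.1% of all genes were lower. Without MI+TRD 6, Psmb9 and Psmb10 were (22.0% of all genes), and the median of the 3 was -0.32. The relative log2 fold changes were -0.11 (SE 0.27) for Psmb8, -0.36 (SE 0.29) for Psmb9 and -0.23 (SE 0.20) for Psmb10, and without MI+TRD 1, 4 and 5 they turned to 0.26, 0.22 and 0.01. MI+TRD 6 is the library with the summed leukocyte level of 1908, while MI+TRD 2, at 146, was close to the highest MI library at 141. The summed level of the 12 interferon response genes present (of 13 listed) was 202 in MI+TRD 2 and 179 in MI+TRD 6, against 147 to 156 in the other device libraries and 168 to 228 in MI. Tap1 and Tap2, the peptide transporter genes that neighbour Psmb8 and Psmb9 on chromosome 20, had 16.3 and 14.5 normalized counts in MI+TRD 2 and 15.0 and 17.1 in MI+TRD 6, against 8.04 to 10.4 and 7.30 to 13.7 in the other device libraries. The part of leukocyte content in these values was not tested.

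The log2 ratio of each immune subunit to the standard subunit it replaces depends on library scaling only through the 0.229 added to each value. For Psmb8 to Psmb5 it averaged -2.52 ± 0.28 over the MI libraries and -2.25 ± 0.62 over the MI+TRD libraries (SD, n = 6 per group). Psmb9 to Psmb6 was 0.02 ± 0.43 and 0.38 ± 0.78, and Psmb10 to Psmb7 was -2.83 ± 0.21 and -2.69 ± 0.43. In each pair the MI+TRD libraries spread more widely than the MI libraries, and most of them lay above the MI mean (4, 5 and 4 of 6). The differences of 0.27, 0.35 and 0.14 gave p = 0.344, 0.392 and 0.483 by a two-sided exact permutation test, each 0.483 after adjustment over the 3 ratios. A difference was therefore not shown, and the smallest p that 6 against 6 libraries allow is 0.00216. The difference for Psmb9 to Psmb6 was -0.02 without MI+TRD 1, 4 and 5, and 0.00 with Psmb6 summed with its overlapping row.

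The structural beta subunits, which complete the inner rings without cutting, had a median of -0.24. At an unadjusted p below 0.05, 3 of 4 were lower (1 with median ratios), where 19.1% of all genes were (8.22% with median ratios). Psmb3 had 33.2, 40.8 and 53.5 normalized counts in MI against 18.9, 26.8 and 39.3 in MI+TRD (lowest, median, highest), with 4 MI+TRD libraries under the lowest MI library. Relative to the median gene its log2 fold change was -0.45 (SE 0.19, adjusted p = 0.133 by limma), and it was -0.09 without MI+TRD 1, 4 and 5. Psmb1 had 55.5, 81.2 and 96.9 in MI against 51.4, 58.4 and 69.6 in MI+TRD, a relative change of -0.25 (SE 0.16, adjusted p = 0.170 by limma). It had 91.9 to 96.9 in MI 1, 2 and 4, and 55.5 to 70.5 in MI 3, 5 and 6. Psmb2 and Psmb4 stood at -0.21 and -0.23. The deposited row of Psmb4 lies inside the much longer rows of LOC103689947 and Selenbp1 on the same strand, and whether these rows share reads is not known here. The same holds for Psma1 and Psmc4 (inside Sbk1), Psmb2 (RGD1563072), Psmb8 (RT1-DMa and RT1-DMb), Psmb9 (Brd2), Psmd8 (Sbk1, Kcnk6 and Zfp74), Psmd11 (Rnf135) and Psmg2 (Myot). The Sbk1 interval takes in Psmc4, Psmd8 and Psma1, whose starts run from 84978220 to 183733567 on chromosome 1. An interval that long may not mark a single gene, and lying inside it need not mean shared reads.

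The alpha subunits form the outer rings, whose tails gate entry to the core. Of 7 tested, 5 were lower at an unadjusted p below 0.05, and their median was -0.22, where 19.1% of all genes were lower. With median ratios, and likewise with the span trend removed, none of the 7 was lower (8.22% of all genes in both). Psma2 had 38.6, 41.2 and 45.7 normalized counts in MI against 23.9, 32.4 and 42.7 in MI+TRD, so that 5 device libraries lay under every MI library and 1, MI+TRD 2, lay inside. The relative log2 fold change came to -0.27 (SE 0.14, adjusted p = 0.139 by limma). Psma4, at 35.7, 41.4 and 50.2 in MI against 24.7, 33.8 and 42.7 in MI+TRD, showed the same arrangement with a change of -0.23 (SE 0.15, adjusted p = 0.166 by limma). Without MI+TRD 1, 4 and 5 the changes of Psma2 and Psma4 were -0.01 and 0.00. Psma1, Psma5 and Psma7 stood at -0.17, -0.22 and -0.23. Psma3 and Psma6 stood apart from the rest of the ring at 0.15 and 0.08, and the row of Psma3 shares 18903 bases with that of Psma3l on the same strand.

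The 19S regulatory particle had a median closer to that of all genes than the core had. The 14 genes of the core without the immune subunits had a median of -0.23, with 10 lower at an unadjusted p below 0.05, and the 17 base and lid genes had a median of -0.02, with 7 lower, where 19.1% of all genes were lower. With median ratios 3 and 1 were lower (8.22% of all genes). With the span trend removed the medians were -0.19 and 0.01, with 2 and 0 lower. Without MI+TRD 1, 4 and 5 the order turned, at 0.00 and -0.07. The 17 genes leave out Adrm1 and Sem1, further subunits of the regulatory particle whose symbols the naming rule does not match. Their relative log2 fold changes were -0.40 and -0.64 (unadjusted p = 0.00187 and 0.0275 by limma). The difference between core and cap was not tested.

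Among the base ATPases, which unfold substrates and thread them into the core, 3 of 6 were lower at an unadjusted p below 0.05 (median -0.11), where 19.1% of all genes were. It was 0 with median ratios, 0 with the span trend removed (8.22% of all genes in both) and 1 without MI+TRD 6 (22.0%). Psmc2 had 45.4, 59.2 and 80.6 normalized counts in MI against 35.2, 47.5 and 50 in MI+TRD, with a relative log2 fold change of -0.24 (SE 0.15, adjusted p = 0.174 by limma). It had 67.4 to 80.6 in MI 1, 2 and 4, and 45.4 to 50.9 in MI 3, 5 and 6. Psmc5 had 56.0, 63.7 and 83.1 in MI against 46.9, 54.5 and 61.0 in MI+TRD, a change of -0.15 (SE 0.13, adjusted p = 0.210 by limma) that was 0.01 with the span trend removed. In both genes all 6 MI+TRD libraries lay under the MI mean. Psmc1, Psmc3 and Psmc4 stood at -0.02, -0.12 and -0.11. Psmc6 lay the other way at 0.26 (SE 0.14, unadjusted p = 0.406 by limma). It had 23.0 to 29.8 in MI 1, 2 and 4, 36.7 to 38.4 in MI 3, 5 and 6, and 29.9 to 38.4 in MI+TRD.

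The non-ATPase part of the base holds the large scaffold and ubiquitin-docking subunits Psmd1 and Psmd2 and the ubiquitin receptor Psmd4. Psmd4 had 49.4, 65.7 and 81.9 normalized counts in MI against 41.1, 46.8 and 55.8 in MI+TRD, with 4 device libraries under every MI library. In MI 1, 2 and 4 it had 77.9 to 81.9. In MI 3, 5 and 6 it had 49.4 to 53.4, which the MI+TRD range covers. Its relative log2 fold change was -0.29 (SE 0.15, unadjusted p = 0.0133, adjusted p = 0.143 by limma), and at -0.32 it was as large without MI+TRD 1, 4 and 5. Psmd1 had 72.6, 87.1 and 113 in MI against 63.5, 91.4 and 116 in MI+TRD, a change of 0.18 (SE 0.16, adjusted p = 0.923 by limma), which was -0.07 without those 3 libraries. Psmd2 stood at 0.15 (SE 0.15).

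In the lid, 3 of 8 members were lower at an unadjusted p below 0.05 (1 with median ratios), and the median was -0.02. Of all genes 19.1% were lower at that p, and 8.22% with median ratios. Psmd8, a structural lid subunit, had 30.5, 38 and 48.7 normalized counts in MI, and 19.6, 13.6 and 21.9 in MI+TRD 1, 4 and 5 against 31.5 to 40.9 in the other device libraries. Relative to the median gene its log2 fold change was -0.48 (SE 0.22, adjusted p = 0.145 by limma), and 0.00 without those 3 libraries. Psmd13 showed the same split in smaller measure, with 30.1, 34.2 and 44.7 in MI against 23.3, 26.8 and 35.5 in MI+TRD, a change of -0.22 (SE 0.14, adjusted p = 0.164 by limma) that was 0.00 without them. Psmd14, the deubiquitinase of the lid, stood at 0.04 (SE 0.13), Psmd3 at -0.16 (SE 0.12), and Psmd6, Psmd7, Psmd11 and Psmd12 lay between -0.02 and 0.00.

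Assembly chaperones of the base were led by Psmd9, which binds the tail of an ATPase during assembly. Psmd9 had 8.76, 11.0 and 17.5 normalized counts in MI, and 4.85, 5.01 and 3.65 in MI+TRD 1, 4 and 5 against 9.01 to 10.8 in MI+TRD 2, 3 and 6. All 6 device libraries lay under the MI mean of 12.6 ± 3.81 (SD, n = 6), and the low 3 lay under every MI library. The relative log2 fold change was -0.70 (SE 0.27), with an unadjusted p of 0.00697 and an adjusted p of 0.133 by limma. At a span of 18.6 kb it was -0.71 with the span trend removed, and it was -0.14 without MI+TRD 1, 4 and 5. Psmd5 had 6.97, 8.85 and 11.2 in MI against 4.35, 7.28 and 9.20 in MI+TRD, a change of -0.18 (SE 0.18, adjusted p = 0.305 by limma). Psmd10, also called gankyrin, stood at -0.21 (SE 0.26) on 16 to 45 reads a library.

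The core assembly chaperones, which pair up to build the alpha rings, differed among themselves. Psmg4 had 8.78, 10.5 and 13.5 normalized counts in MI, and 4.55, 5.22 and 4.71 in MI+TRD 1, 4 and 5 against 8.83 to 9.62 in the other device libraries. The relative log2 fold change came to -0.51 (SE 0.21, adjusted p = 0.133 by limma) and -0.04 without those 3 libraries. Psmg2 had 7.92, 9.15 and 9.72 in MI against 3.81, 7.67 and 8.28 in MI+TRD, with MI+TRD 1 and 5 lowest at 5.30 and 3.81, a change of -0.31 (SE 0.18, adjusted p = 0.173 by limma). Psmg1, the partner of Psmg2, had 7.36, 8.06 and 10.5 in MI against 6.44, 7.42 and 8.63 in MI+TRD, and its change was -0.01 (SE 0.13).

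Activators and the inhibitor gave no common direction. The median of the 4 activators was 0.03, and 1 was lower at an unadjusted p below 0.05, where 19.1% of all genes were. Psme1, which with Psme2 forms the interferon-inducible cap of the immunoproteasome, had 58.7, 82.9 and 102 normalized counts in MI, and 47.9, 42.8 and 42.2 in MI+TRD 1, 4 and 5 against 61.9 to 77.1 in the other device libraries. Its relative log2 fold change was -0.42 (SE 0.18, adjusted p = 0.133 by limma) and -0.08 without those 3. Psme2, on 17 to 64 reads a library, had 0.813, 1.74 and 3.19 in MI against 0.745, 1.44 and 2.59 in MI+TRD, a change of -0.05 (SE 0.32).

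Psme3, a nuclear activator, had 28.5, 33.4 and 43.1 in MI against 26.5, 32.5 and 39.9 in MI+TRD, a change of 0.12 (SE 0.13). Psme4, a large nuclear activator tied to histone breakdown, had 77.3, 89.6 and 103 in MI against 84.2, 100 and 112 in MI+TRD. It was the highest member at 0.30 (SE 0.12), with an unadjusted p of 0.216 on the deposited scale and of 0.0474 with median ratios by limma, and 5 of 6 device libraries lay above the MI mean. MI 1, 2 and 4 had 77.3 to 79.7 of Psme4, and MI 3, 5 and 6 had 99.5 to 103. Psmf1, which inhibits the core in vitro, had 8.73, 9.74 and 12.5 in MI against 5.60, 8.37 and 10.5 in MI+TRD, a change of -0.12 (SE 0.16). Psmc3ip had 2.0, 2.68 and 3.44 in MI against 1.18, 2.51 and 3.22 in MI+TRD, a change of -0.07 (SE 0.24).

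**Figure D4:**
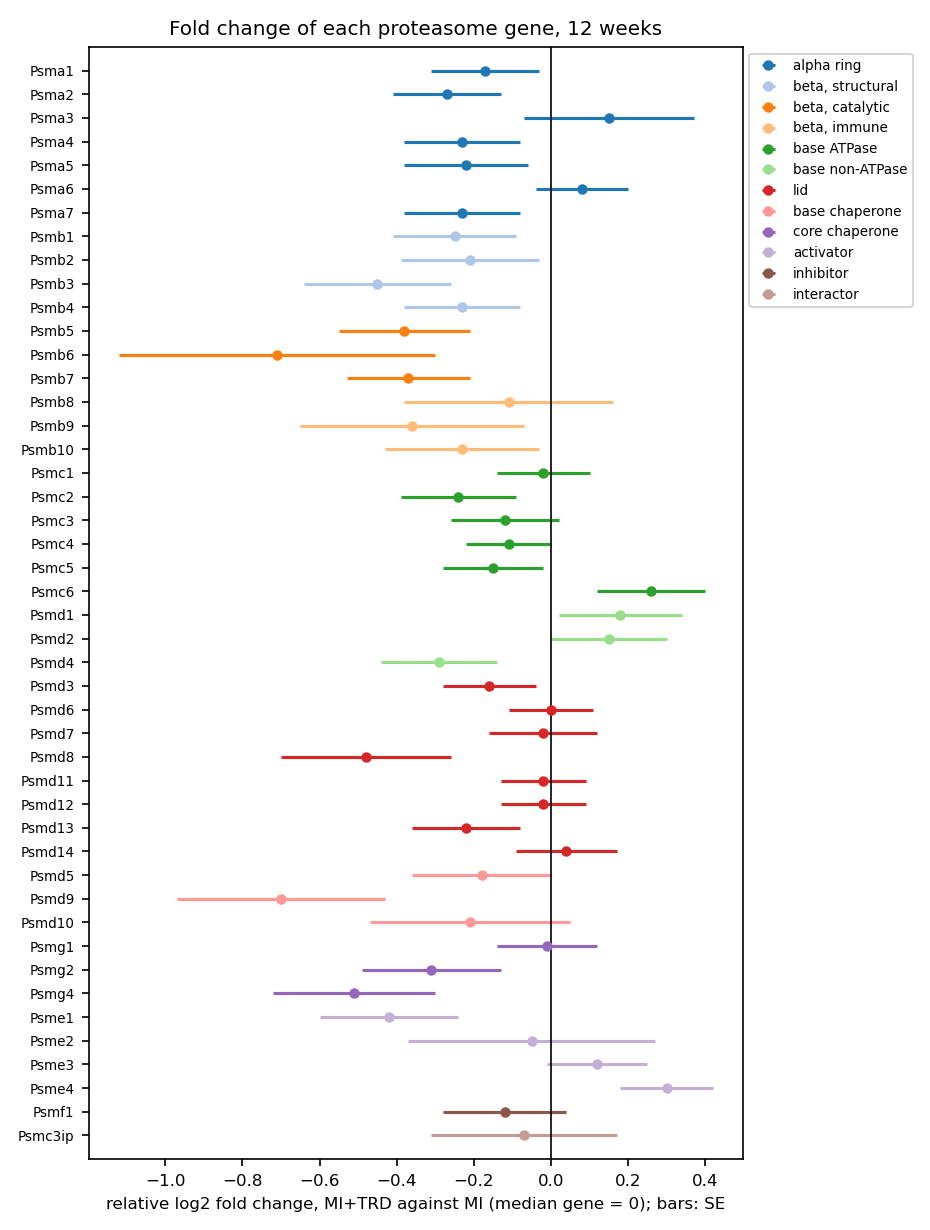
Relative log2 fold change of each tested proteasome gene at 12 weeks, with bars of 1 SE, by role. Values run from -0.71 for Psmb6 to 0.30 for Psme4, and no gene passed an adjusted p of 0.05.

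Of 34 further genes of the pathway listed by role, 27 were tested. Their median was 0.13. At an unadjusted p below 0.05 the device group was lower in 6 of them and higher in 2, where 19.1% and 2.79% of all genes were, and with median ratios it was lower in 3 and higher in 5 (8.22% and 7.53% of all genes). None passed an adjusted p of 0.05 (lowest 0.132). Among other subunits and assembly factors 4 of 9 were lower and 1 higher, and with median ratios 2 were lower and 3 higher. Adrm1, a ubiquitin receptor of the base, had 32.8 to 43.9 normalized counts in MI and 19.3 to 35.1 in MI+TRD, a relative log2 fold change of -0.40 (SE 0.14, adjusted p = 0.132 by limma). Pomp, which matures the core, had 28.2 to 48.1 in MI and 15.1 to 32.6 in MI+TRD, with MI+TRD 1, 4 and 5 at 19.8, 16.5 and 15.1, and a change of -0.57 (SE 0.21, adjusted p = 0.132 by limma) that was -0.16 without those libraries. Zfand5, which activates the proteasome in wasting muscle, lay the other way at 0.79 (SE 0.26, adjusted p = 0.171 by limma), with 68.3 to 82.3 in MI+TRD against 22.2 to 76.4 in MI, and at 0.85 it was as large without them. It had 22.2 to 38.2 in MI 1, 2 and 4, but 65.7 to 76.4 in MI 3, 5 and 6, close to the MI+TRD range.

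Among transcription factors and their processing 1 of 4 was lower at an unadjusted p below 0.05, where 19.1% of all genes were. Keap1, the adaptor that sends Nfe2l2 to degradation, had 25.8 to 46.4 normalized counts in MI and 19.4 to 25.5 in MI+TRD, so that every device library lay under every MI library. Relative to the median gene its log2 fold change was -0.37 (SE 0.14, adjusted p = 0.132 by limma), and -0.26 without MI+TRD 1, 4 and 5. Ddi2 and Ngly1, which process Nfe2l1, stood at 0.36 (SE 0.21) and 0.01 (SE 0.12).

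Of 5 genes of ubiquitin and its activation none was lower and 1 was higher at an unadjusted p below 0.05. Over all genes it was 19.1% and 2.79%. Uba6, an alternative activating enzyme, had 2.59 to 10.3 normalized counts in MI and 6.74 to 11.9 in MI+TRD, a change of 0.95 (SE 0.28, adjusted p = 0.138 by limma). It had 2.59 to 4.12 in MI 1, 2 and 4, and 6.45 to 10.3 in MI 3, 5 and 6. Rps27a, which encodes ubiquitin fused to a ribosomal protein, stood at -0.23 (SE 0.33), and at 0.42 without MI+TRD 1, 4 and 5. Ubb, which encodes a chain of ubiquitin units, had 381 to 679 normalized counts in MI and 381 to 542 in MI+TRD, a change of 0.01 (SE 0.17) that was -0.11 without those libraries. Of 9 genes that deliver substrates 1 was lower at an unadjusted p below 0.05, where 19.1% of all genes were. It was the Vcp cofactor Ufd1, at -0.25 (SE 0.14, adjusted p = 0.142 by limma). Ufd1 had an unadjusted p of 0.118 with median ratios, and stood at 0.01 without MI+TRD 1, 4 and 5. The shuttle factor Ubqln2 stood at 0.46 (SE 0.18). Nploc4, the partner of Ufd1 on Vcp, stood at 0.31 (SE 0.18), and at -0.02 without MI+TRD 1, 4 and 5.

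At 6 weeks the authors' deposited table gave no proteasome gene a p below 0.05, where it gave 4.09% of all genes lower and 4.42% higher at that p. Its lowest false discovery rate among the 47 was 0.628, and it held 0 of all genes below a rate of 0.05. In the authors' deposited table at 6 weeks 34 of 47 ratios of MI+TRD to MI lay below 1, as did 57.0% of all genes, and the median log2 ratio was -0.06 (all genes -0.04). The lowest ratio at 6 weeks in the authors' deposited table was 0.803 for Psmb6 (p = 0.522), and the lowest p was 0.0700 for Psmc5, with a ratio of 0.812.

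At 12 weeks the authors' deposited table gave 24 of 47 a p below 0.05 with a lower mean, where it gave 22.0% of all genes, and none a higher mean at that p (2.12% of all genes), and 43 of 47 ratios lay below 1, where 67.3% of all genes did. By the authors' deposited table, 3 of 47 were lower at a false discovery rate below 0.05, as were 2.90% of all genes, and none was higher (0.0443% of all genes): Psmd9 (ratio 0.556, rate 0.0439), Psmb3 (ratio 0.653, rate 0.0483) and Psmg4 (ratio 0.639, rate 0.0495). The median log2 ratio of the 47 in the authors' deposited table at 12 weeks was -0.34 (all genes -0.16). That table rests on the same 12 libraries as the fits above and is no independent support.

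Set side by side in the authors' deposited tables, Psmd9 had a ratio of 1.22 at 6 weeks (p = 0.201) and 0.556 at 12 weeks. Psmg4 had 0.994 and 0.639, Psmb3 had 0.898 and 0.653, and Psmb5 had 0.901 and 0.665 in the authors' deposited tables. In those tables, the immune subunits Psmb8, Psmb9 and Psmb10 had 6-week ratios of 1.07, 1.06 and 0.898, none with a p below 0.05. Single 6-week libraries were not analysed here, and the difference between the times was not tested.

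**Figure D5:**
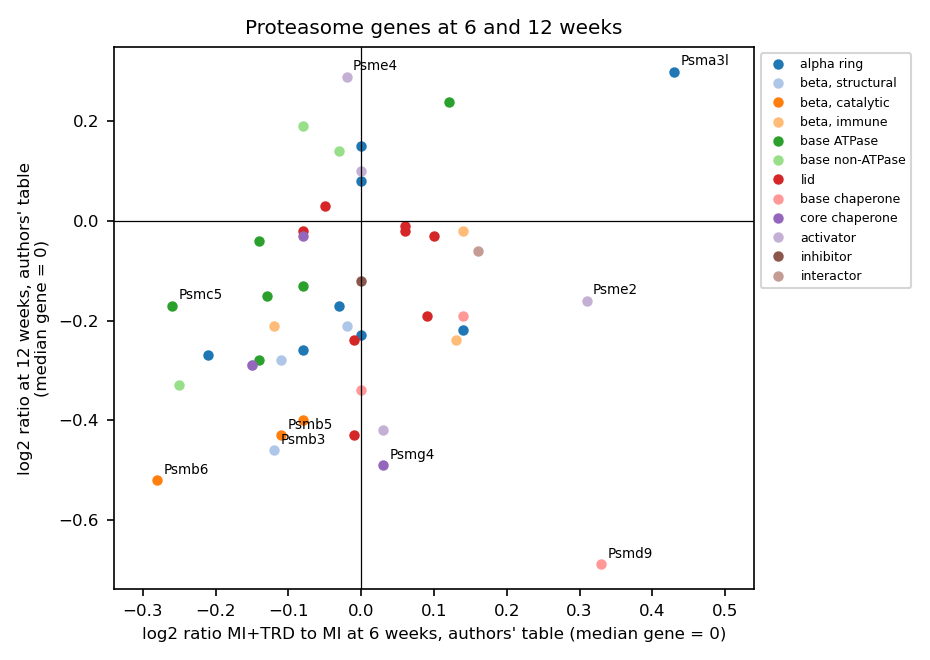
Log2 ratio of MI+TRD to MI in the authors' deposited tables at 6 weeks (horizontal) and 12 weeks (vertical) for the 47 proteasome genes, each relative to the median gene of its table. The spread is wider downward at 12 weeks, with Psmd9 at -0.69 there and at 0.33 at 6 weeks.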

How the data were processed

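Polyadenylated RNA of rat heart muscle was sequenced with Illumina chemistry, per the labels' protocols. Partek and build rn6 are named in the submitters' processing notes. Which aligner, counter, annotation, strand setting and scaling the authors used is not given in the sources used here. The first deposited values are a signal, the authors' normalized count per gene and library at 12 weeks. Low values were nearly all multiples of the library's smallest value (97.2% to 98.6% per library within 0.1 of a whole number, among values up to 20 steps), so a value was read as reads plus 1, times that step. The authors also deposited comparisons at 6 and 12 weeks with a p-value and false discovery rate, the ratio of MI+TRD to MI, a signed fold change score, and least-squares means (signal) per group, per the file headers. No column was left without a sample.

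Values were tested with limma 3.58.1 in R 4.3.3 (trended eBayes, two-sided, no covariates) on log2(value + 0.229), which understates changes of low genes. The fit held the 10629 of 10723 genes with a mean of at least 0.458, with Benjamini-Hochberg adjustment over all of them and a threshold of 0.05. Relative fold changes subtract the median of all genes tested. The recovered reads also entered edgeR 4.0.16 and DESeq2 1.42.0. Catalytic ratios were compared by exact permutation over 924 assignments. On reads simulated for this comparison (10648 genes), limma called 12%, 48%, 100% and 100% of 50 genes changed 1.5-, 2-, 3- and 4-fold, with 9 false calls. The simulated libraries were independent, with a single dispersion of 0.1 and no libraries whose short genes lay low. Only genes well above the filter were changed, so the rates may differ for the real data. No library repeated another of its group (chi-square per degree of freedom at least 15.0). Intervals of genome are those of the deposited table (rn6) or of RefSeq (GRCr8), never mixed.

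The members and lists were chosen with earlier results of these data known. Values by library, as lowest, median and highest, are given for the catalytic subunits, core chaperones, activators and inhibitor, and for the 2 members with the smallest p of each other role, and up to 3 genes by smallest p of each pathway list; other members are given by fold change. The same-numbered samples of the groups were not treated as pairs. Psma8, Psmb11, Psmg3, Psme3ip1 and 7 of the 34 pathway genes were not analysed here, and some further genes of these lists are not reported here. Alternatives tried were other pseudocounts, filters, scalings, tests, library weights, a span trend, the replicate number as a block, and leaving libraries out.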

Additional observations from a re-analysis of the deposited data

Results flagged for a closer look

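Of 100 tests for a single library standing apart in a group of 6, over each member and group at 12 weeks and the catalytic ratios, 3 were past the 95% critical value of Dixon's gap test, where chance gives about 1 in 20. Psma3l was highest in MI 2 at 1.62 normalized counts, against 0.0438 to 0.410 in the other MI libraries. Its row shares nearly all its bases with that of Psma3, and MI+TRD 2 was high as well at 1.69. Psmd11, a lid subunit, was highest in MI 4 at 47.6, against 35.8 to 39.4 in the other MI libraries. Psmg1, a core assembly chaperone, was highest in MI 4 at 10.5, against 7.36 to 8.25.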

How the results depend on the processing

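At an unadjusted p below 0.05 the deposited scale gave 21 of 46 proteasome genes and 6 of 27 other pathway genes lower, no member higher, and the members' median was -0.18. With median ratios the counts were 7 and 3 lower with 1 member higher, with equal column totals 1 and 3 lower with 1 member higher, and with quantile normalization 8 and 3 lower. edgeR gave 7 and 3, DESeq2 gave 6 and 3, library weights gave 6 and 4 (median -0.09), and the span trend removed gave 4 and 4 (median -0.10). No member passed an adjusted p of 0.05 under any setting run, while DESeq2 called 18 other genes (7 lower, 11 higher). Other pseudocounts and filters gave 21 members in each case. Leaving out each library in turn gave 10 to 24 members lower, with medians of -0.22 to -0.14, and 4 to 6 pathway genes.

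Leaving out MI+TRD 1, 4 and 5 together was chosen after seeing the data, because their short genes lay low, and it leaves 3 libraries in that group. It gave 1 member and 3 pathway genes lower with a median of -0.03, and with median ratios as well 0 and 0 lower with a median of -0.03. The log2 ratio of Psmb9 to Psmb6 turned to -0.02 and the relative fold changes turned for Psmb6 (0.24), Psmb8 (0.26), Psmb9 (0.22), Psmb10 (0.01), Psmd1 (-0.07), Psmd5 (0.03), Psme2 (0.26), Psmc3ip (0.22), Ngly1 (-0.02), Rps27a (0.42), Ubb (-0.11), Nploc4 (-0.02) and Ufd1 (0.01). With median ratios as well they were the same to within 0.01, with Psmd1 at -0.06, Psme2 at 0.25 and Ubb at -0.10, and Psma4 also turned (0.01). The cause was not tested.

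The span trend removed turned Psmb10 (0.02), Psmb8 (0.12), Psmc5 (0.01), Psmg1 (0.11), Psme2 (0.15), Psmc3ip (0.15), Ngly1 (-0.10) and Rps27a (0.02), with the same values under the replicate block with the span trend removed. Library weights turned Psme2 (0.21), Rps27a (0.02) and Ngly1 (-0.04), and edgeR and DESeq2 turned Ngly1 (-0.01 in both). Ubb turned with edgeR and with a pseudocount of 20 steps (-0.01 in both). Leaving out 1 library turned Psmb8 (range -0.27 to 0.02), Psmg1 (-0.04 to 0.03), Psme2 (-0.19 to 0.12), Psmc3ip (-0.19 to 0.11) Ngly1 (-0.03 to 0.06) and Ubb (-0.04 to 0.07), and it moved Psmb6 between -0.92 and -0.36. The cause was not tested.

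The labels give the same-numbered samples of the groups nothing in common but the number. Deviations of same-numbered libraries correlated at -0.248, 0.326, 0.143, 0.194, 0.119 and -0.334. MI libraries 2 to 5 but not 1 and 6 correlated best with the MI+TRD library of their own number. Whether the numbers mark a pairing or a batch is not known from the labels and was not tested. The replicate block gave 18 members lower with a median of -0.18 and 6 pathway genes, and with the span trend removed 4 and 3. The 6-week count of 0 members at p below 0.05 had no paired analysis. Depth limits Psme2 and Psmd10, which rest on 17 to 64 and 16 to 45 reads a library.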
